A study of Mus musculus with 24 samples.

Results

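The genes described here are 9 members of the TGF-beta pathway, of 52976 gene symbols in the count files: the ligands Tgfb1, Tgfb2 and Tgfb3, the activin subunit gene Inhba, the latent TGF-beta binding protein gene Ltbp2, the receptors Tgfbr1 and Tgfbr2, the inhibitor Smad7 and the target Tgfbi. They were chosen by name, and each was found under 1 symbol. Messenger RNA had been sequenced from 18 wound libraries and from 6 libraries of RAW264.7, an established mouse macrophage line. All wounds came from diabetic mice, so diabetes is shared by both arms. Control wounds carry the label of a diabetic control, and treated wounds received a hydrogel named Fmoc-KYF-AgNCs-3S1C-Hyd2. The titles of all treated wound libraries begin with TEOA, and those of the control wounds with Dia. Each arm was sampled at days 1, 7 and 14 with 3 libraries a group. In RAW264.7, 3 libraries without hydrogel are labelled with LPS, the bacterial lipopolysaccharide that activates macrophages. The 3 libraries with hydrogel name only the gel in their labels (Hyd3, Hyd4 and Hyd5, 1 library each), while the design text speaks of LPS-induced macrophages in both arms and of Hyd2. How diabetes was made, the mouse strain and age, and whether libraries came from separate animals or cultures are not given in the sources used here, so p-values speak only of how these libraries vary, and that variation may be technical.

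TGF-beta ligands are secreted in a latent form, held in the matrix or at the cell surface by latent binding proteins, and once released they bring together a type II receptor (Tgfbr2) and a type I receptor (Tgfbr1), which activates SMAD transcription factors. Activins, made from Inhba, signal through related receptors to the same SMADs, and Smad7 is induced by the pathway and blocks it. In skin wounds TGF-beta is known for drawing in macrophages, for driving fibroblasts to deposit collagen and for slowing the division of keratinocytes.

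Total counts were 12.4 to 27.1 M per wound library and 17.9 to 24 M per RAW264.7 library. The spread between libraries of 1 group was uneven. The median chi-square between 2 libraries of a group, which is 0.455 under sampling noise alone, was 0.644 to 0.796 in control wounds of day 7 and 1.29 to 2.31 in hydrogel wounds of day 7, but 7.25 to 30.1 in control wounds of day 1 and 8.54 to 34.5 in control wounds of day 14. The control libraries of day 7 thus varied little more than repeated sampling would, and hydrogel libraries of day 7 varied more than that. Hydrogel wounds lay at 7.63 to 26.8 at day 1 and at 1.8 to 5.39 at day 14. Each call of a member that rests on day 7 libraries is also given with the 3 libraries of a day 7 group summed to 1. All wound groups share 1 estimate of the spread per gene, so calls at day 14 draw on day 7 libraries too. RAW264.7 libraries without hydrogel lay at 0.511 to 0.613 and those with hydrogel at 1.65 to 4.39. Those without hydrogel thus also varied little more than repeated sampling would, and no fit with them summed was made. Of 10 macrophage markers, the RAW264.7 libraries had counts for at least 8 in each, with C1qa and C1qb at or near 0, and markers of fibroblasts summed to at most 0.176 CPM (counts per 1000000 counts). Wound libraries had counts for all 8 fibroblast and all 8 keratinocyte markers.

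The 3 members that passed as lower in hydrogel wounds at day 14 were Tgfbr2, Tgfbi and Ltbp2, and their promoter sequence is shown because they moved in the same direction. RefSeq promoters (build GRCm38.p6) were searched for 7 of the 9 members. Tgfb3 had no entry, and Smad7 was set aside before the search, so nothing is said of matches in either. The stretches below lie upstream of both the RefSeq start and the first exon base in the count files, at chr9:116175364-116175613 (minus strand), chr13:56609336-56609522 (plus strand) and chr12:84876533-84876741 (minus strand). Each is written 5′ to 3′ on the strand of its gene. Capitals mark CAGAC, the core that SMAD proteins bind, on either strand (GTCTG when read on the other).
Tgfbr2: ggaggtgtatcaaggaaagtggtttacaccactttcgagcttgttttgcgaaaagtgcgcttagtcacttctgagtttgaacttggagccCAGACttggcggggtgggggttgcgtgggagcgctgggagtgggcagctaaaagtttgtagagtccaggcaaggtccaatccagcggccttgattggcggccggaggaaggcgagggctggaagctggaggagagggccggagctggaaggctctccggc
Tgfbi: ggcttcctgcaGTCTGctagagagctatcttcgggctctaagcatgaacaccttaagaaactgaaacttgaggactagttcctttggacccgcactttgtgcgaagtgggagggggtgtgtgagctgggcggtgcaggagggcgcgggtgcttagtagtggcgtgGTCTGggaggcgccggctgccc
Ltbp2: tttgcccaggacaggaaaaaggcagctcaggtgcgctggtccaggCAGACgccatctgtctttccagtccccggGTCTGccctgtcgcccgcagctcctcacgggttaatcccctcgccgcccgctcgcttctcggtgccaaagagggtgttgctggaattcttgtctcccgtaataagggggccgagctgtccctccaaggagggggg
The Tgfbr2 stretch held 1 match to CAGAC, and those of Tgfbi and Ltbp2 held 2 each. Such a match is common, since 13861 of 32851 mouse promoters (42.2%) held at least 1 in the 250 bases before the start. Tgfb2 had 2 matches in that window, 1 of the 2 Tgfbr1 entries had 1, and Tgfb1 and Inhba had none. The AP-1 motif TGANTCA, searched on both strands, was in none of the 8 entries searched for these 7 members and in 6.75% of all promoters. A match describes letters in the window and is not evidence of binding.

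**Figure D1:**
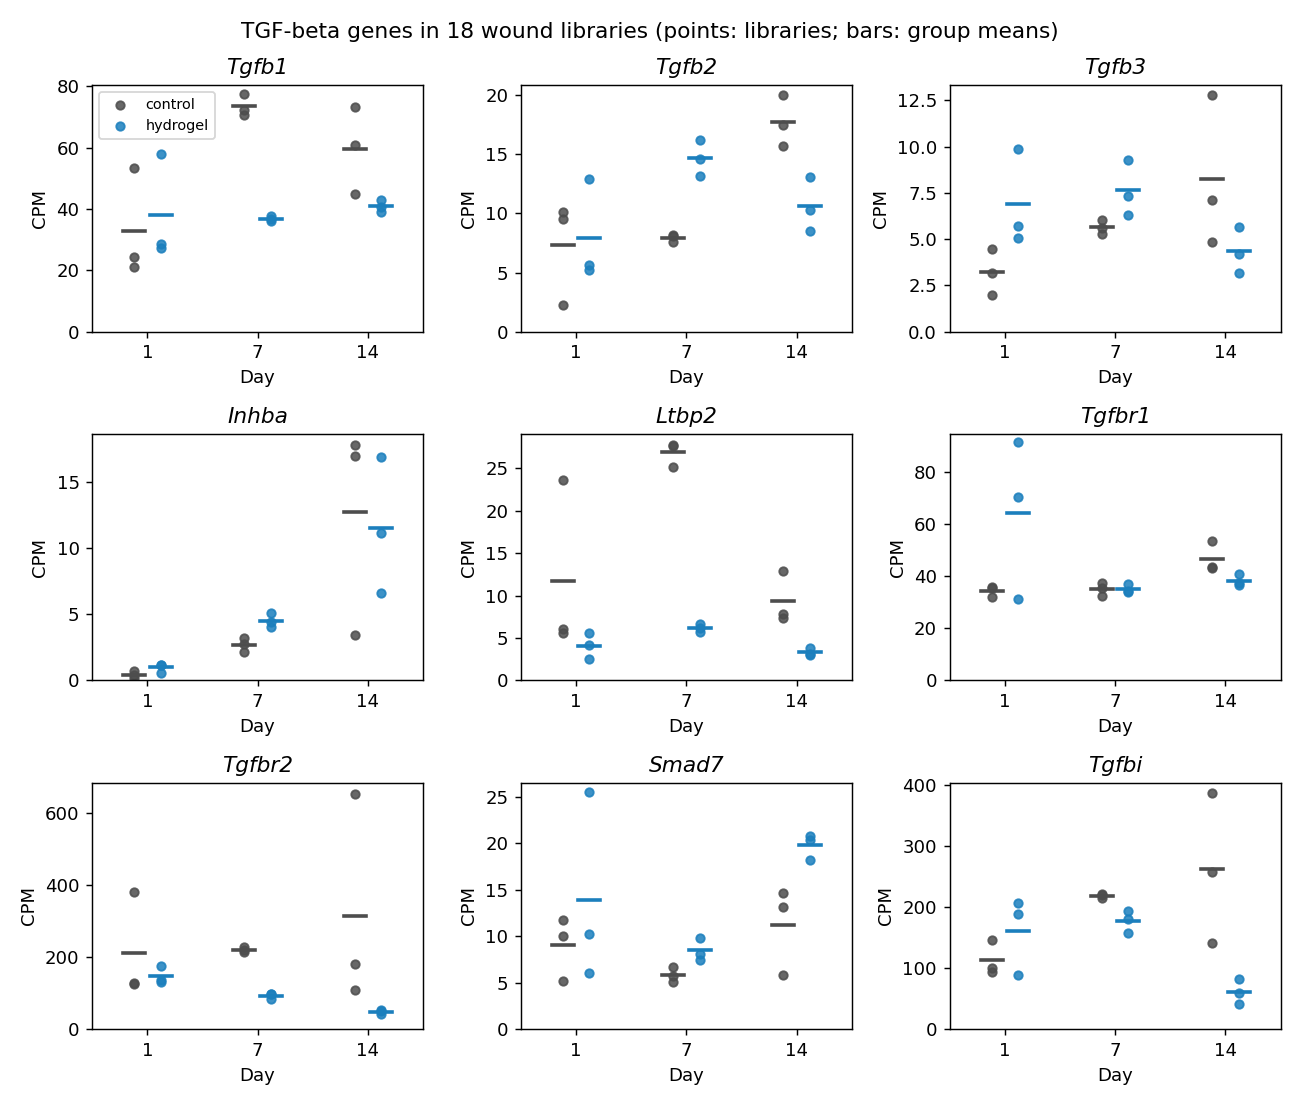
Counts per 1000000 counts (CPM, linear axes from 0) of the 9 members in each wound library (points) with group means (bars), control in grey and hydrogel in blue, by day. At day 14 the 3 hydrogel libraries lay below all 3 control libraries for Tgfbr2, Tgfbi and Ltbp2, which passed at that day. They did so too for Tgfb1, Tgfb2 and Tgfbr1, which did not pass. Inhba was lowest in both arms at day 1.

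Tgfb1, the ligand made by platelets, macrophages and many other cells (chr7:25687002-25705077, plus strand), was lower in hydrogel wounds at day 7. Levels are CPM after scaling of library sizes. In control wounds it stood at 53.3, 24.4 and 21 CPM at day 1, at 70.7, 77.6 and 72.4 at day 7 and at 61, 73.1 and 45 at day 14. In hydrogel wounds it stood at 58, 27.4 and 28.5 CPM at day 1, at 37.8, 36 and 36.7 at day 7 and at 42.8, 39.1 and 40.6 at day 14. The arms overlapped at day 1 and were apart at days 7 and 14. At day 7 Tgfb1 fell by 1 ± 0.33 on the log2 scale (SE, n = 3 a group, edgeR quasi-likelihood test, Benjamini-Hochberg adjusted p = 0.0419), from 73.6 ± 3.56 to 36.8 ± 0.92 CPM (SD). The call was lost when any 1 day 7 library was left out (adjusted p between 0.0858 and 0.111) and with day 7 libraries summed (adjusted p = 0.773). At day 14 the difference was -0.55 ± 0.33 (adjusted p = 0.261). From day 1 to day 7 Tgfb1 rose in control wounds by 1.16 ± 0.33 (adjusted p = 0.0161), whereas the same step in hydrogel wounds was -0.04 (adjusted p = 0.945). The control call ended without replicate 2 or 3 of day 1 (adjusted p = 0.0743 and 0.0691), with only the compared groups fitted (adjusted p = 0.0683) and with day 7 libraries summed (adjusted p = 0.271). A test of whether the hydrogel difference varied by day gave an adjusted p of 0.164 for Tgfb1.

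Tgfb2 and Tgfb3, the other ligand genes, passed in no single comparison of arms or days in the edgeR fit of all wound libraries. Tgfb2 (chr1:186622792-186705989, minus strand) stood at 2.24, 9.55 and 10.1 CPM in control wounds at day 1, at 8.17, 8.12 and 7.6 at day 7 and at 17.5, 20 and 15.7 at day 14. In hydrogel wounds it stood at 5.67, 5.21 and 12.9 CPM at day 1, at 14.6, 16.2 and 13.2 at day 7 and at 13.1, 10.3 and 8.52 at day 14. The 3 hydrogel libraries lay above all controls at day 7 and below all controls at day 14. The differences were 0.88 ± 0.43 at day 7 (adjusted p = 0.153) and -0.74 ± 0.43 at day 14 (adjusted p = 0.245). In control wounds the step from day 7 to day 14 was 1.16 ± 0.43 (adjusted p = 0.0957). In limma-voom the arms passed at day 7 (adjusted p = 3.88e-05) and day 14 (0.00581). The control step passed in DESeq2 (adjusted p = 0.0398) and limma-voom (0.000464). The hydrogel step from day 7 to day 14 passed in limma-voom (adjusted p = 0.000769). With day 7 libraries summed in edgeR none of these passed (adjusted p = 0.839, 0.399, 0.754 and 0.795 in the order given).

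Tgfb3 is counted in these files over 4 exon intervals with 564 bases, where the GENCODE M21 annotation of the same build gives 7 intervals with 3383 bases. Its CPM therefore covers part of the gene, and no level per length is given. In control wounds Tgfb3 stood at 1.97, 4.47 and 3.17 CPM at day 1, at 6.02, 5.62 and 5.3 at day 7 and at 7.13, 12.8 and 4.85 at day 14. In hydrogel wounds it stood at 5.07, 5.73 and 9.88 CPM at day 1, at 7.32, 6.32 and 9.28 at day 7 and at 5.64, 4.21 and 3.17 at day 14. The order of the arms turned over between the first and the last day, with hydrogel above control in every library at day 1 and overlapping ranges at day 14. No single day passed in the edgeR fit of all wound libraries (1.11 ± 0.40 with adjusted p = 0.0926 at day 1, and -0.93 ± 0.39 with adjusted p = 0.11 at day 14). Day 1 passed in DESeq2 (adjusted p = 0.0485) and limma-voom (0.0414). Days 7 and 14 passed in limma-voom (adjusted p = 0.0483 and 0.00242). With day 7 libraries summed in edgeR no day passed (adjusted p = 0.254, 0.907 and 0.245 at days 1, 7 and 14). The test of a hydrogel difference that varied by day passed for Tgfb3 at an adjusted p of 0.045, and this call was lost in 15 of 25 alternative fits, the highest adjusted p being 0.283, with day 7 libraries summed.

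Inhba, which encodes the subunit of activin A, a ligand induced in healing skin (chr13:16011851-16031621, plus strand), showed the widest range over time of the 9 genes. Control libraries lay at 0.204, 0.379 and 0.697 CPM at day 1, at 3.2, 2.77 and 2.16 at day 7 and at 3.42, 17.8 and 17 at day 14. Hydrogel libraries lay at 1.2, 0.578 and 1.19 CPM at day 1, at 5.09, 4.03 and 4.41 at day 7 and at 16.9, 11.2 and 6.59 at day 14. In both arms all libraries of day 7 lay above those of day 1, and those of day 14 above those of day 7. Inhba rose from day 1 to day 7 by 2.64 ± 0.62 in control wounds (adjusted p = 0.00612) and by 2.19 ± 0.57 in hydrogel wounds (adjusted p = 0.0177), and from day 7 to day 14 by 2.23 ± 0.54 in control wounds (adjusted p = 0.0159). In hydrogel wounds the last step was 1.36 ± 0.52 (adjusted p = 0.0736). The steps share the day 7 libraries, and with these summed the 3 calls ended (adjusted p = 0.155, 0.38 and 0.546 in the order given). The first of them kept its call when any 1 library was left out and lost it in limma-voom (adjusted p = 0.0592). The second ended without replicate 2 of hydrogel day 1 or replicate 1 of hydrogel day 7 (adjusted p = 0.0857 and 0.0564). The control step to day 14 ended without any 1 control library of day 7 or without replicate 2 or 3 of day 14 (adjusted p from 0.0536 to 0.0748), and with only the compared groups fitted (adjusted p = 0.085). The hydrogel step to day 14 passed in DESeq2 (adjusted p = 0.0402), in limma-voom (7.5e-05) and with only the compared groups fitted (0.00816). With day 7 libraries summed that hydrogel step did not pass (adjusted p = 0.55). Between arms no day passed in the edgeR fit of all wound libraries. The difference was 1.18 at day 1 (adjusted p = 0.257), 0.73 ± 0.53 at day 7 (adjusted p = 0.331), where the libraries did not overlap, and -0.14 at day 14 (adjusted p = 0.869). Day 7 passed in limma-voom (adjusted p = 0.0214) and with only the compared groups fitted (0.00538). With day 7 libraries summed it did not (adjusted p = 0.884). Counts behind the day 1 levels were low, 19 in all over the 3 control libraries and 48 over the 3 hydrogel libraries.

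Ltbp2, a matrix protein of the latent TGF-beta binding protein family found on elastic fibres (chr12:84783212-84876532, minus strand), was lower in hydrogel wounds at days 7 and 14. Control wounds stood at 23.6, 5.61 and 6.02 CPM at day 1, at 25.2, 27.8 and 27.6 at day 7 and at 7.77, 12.9 and 7.32 at day 14. Hydrogel wounds stood at 5.58, 2.47 and 4.19 CPM at day 1, at 6.6, 5.71 and 6.21 at day 7 and at 3.04, 3.77 and 3.17 at day 14. The arms did not overlap on any day, although at day 1 the gap between the lowest control and the highest hydrogel library was narrow. Ltbp2 fell by 2.12 ± 0.47 at day 7 (adjusted p = 0.00666), a 4.35-fold lower level, and dropped by 1.49 ± 0.46 at day 14 (adjusted p = 0.0382). The day 7 call ended with day 7 libraries summed (adjusted p = 0.702). The day 14 call ended in 7 of 14 alternative fits, among them without replicate 1 or 2 of control day 14 (adjusted p = 0.0665 and 0.12) and without any 1 hydrogel library of day 14 (adjusted p = 0.0944 to 0.13). It also ended with only the compared groups fitted (adjusted p = 0.0579) and with day 7 libraries summed, where the difference was -1.51. At day 1 the difference was -1.53 ± 0.46 (adjusted p = 0.0554), and -0.52 ± 0.31 without replicate 1 of the controls, the library at 23.6 CPM. The day 1 difference passed in DESeq2 (adjusted p = 0.012) and not in limma-voom (0.167). In control wounds the step from day 1 to day 7 was 1.2 ± 0.45 (adjusted p = 0.0545). That step passed in DESeq2 (adjusted p = 0.0285) and limma-voom (2.82e-06), and not with only the compared groups fitted (0.175). Within control wounds Ltbp2 fell by 1.52 ± 0.45 from day 7 to day 14 (adjusted p = 0.0398), a call lost without any 1 of the 6 libraries (adjusted p from 0.0549 to 0.15) and with day 7 libraries summed (0.564).

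Of the receptors, Tgfbr2 (chr9:116084293-116175360, minus strand), the type II receptor that binds the ligand first, was lower in hydrogel wounds at day 14. In control wounds it stood at 380, 128 and 125 CPM at day 1, at 221, 229 and 214 at day 7 and at 654, 180 and 110 at day 14. In hydrogel wounds it stood at 131, 175 and 137 CPM at day 1, at 97.1, 84.8 and 98.9 at day 7 and at 54.7, 49.4 and 41.6 at day 14. Replicate 1 of the controls stood apart from the other two at day 1 and at day 14, while every hydrogel library lay below every control library at days 7 and 14. At day 14 that control library also stood apart in the summed markers of macrophages (4760 CPM, against 1650 and 568 in the other 2), fibroblasts (4960, against 2640 and 1880) and keratinocytes (683, against 4630 and 6680), whose part in the result was not tested. At day 14 Tgfbr2 fell by 2.70 ± 0.55 (adjusted p = 0.00557), a 6.48-fold lower level. With day 7 libraries summed the day 14 difference was -2.72. Without control replicate 1 the difference was -1.58 ± 0.38 and kept its call (adjusted p = 0.0226), and with the 2 day 14 groups fitted alone it was -2.74 ± 0.69 (adjusted p = 0.0744). At day 7 it was -1.24 ± 0.52 (adjusted p = 0.0978) and at day 1 -0.51 ± 0.51 (adjusted p = 0.561). The day 7 difference passed in limma-voom (adjusted p = 1.27e-08) and with only the compared groups fitted (2.41e-11). With day 7 libraries summed it did not pass (adjusted p = 0.808).

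Tgfbr1 (chr4:47353222-47414931, plus strand), the type I receptor kinase that phosphorylates SMADs, varied little outside hydrogel wounds of day 1. Control libraries lay at 35.8, 31.9 and 35.4 CPM at day 1, at 35.4, 37.4 and 32.4 at day 7 and at 43.4, 43.3 and 53.3 at day 14. Hydrogel libraries lay at 31.1, 91.6 and 70.3 CPM at day 1, at 34.4, 36.8 and 33.9 at day 7 and at 40.7, 37.4 and 36.5 at day 14. Replicate 1 of hydrogel day 1 lay with the controls, and the other 2 lay above every other wound library. The day 1 difference of 0.91 ± 0.27 missed the threshold (adjusted p = 0.0503), and without that replicate it was 1.24 ± 0.15 (adjusted p = 0.00051). With all libraries it passed in DESeq2 (adjusted p = 0.0194) and limma-voom (0.0012). With only the compared groups fitted it did not (adjusted p = 0.476). From day 1 to day 7 in hydrogel wounds Tgfbr1 fell by 0.88 ± 0.27 (adjusted p = 0.0339) with overlapping libraries. That call ended in 8 of 14 alternative fits, among them without replicate 2 or 3 of hydrogel day 1 (adjusted p = 0.19 and 0.0973), without any 1 library of hydrogel day 7 (0.0888 to 0.0998) and with day 7 libraries summed (0.514).

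Smad7, the inhibitory SMAD that marks receptors for breakdown, passed in no comparison in the edgeR fit of all wound libraries. Control wounds stood at 5.23, 10 and 11.8 CPM at day 1, at 5.05, 5.69 and 6.7 at day 7 and at 5.86, 13.1 and 14.7 at day 14. Hydrogel wounds stood at 6.1, 25.5 and 10.2 CPM at day 1, at 8.11, 9.85 and 7.48 at day 7 and at 18.2, 20.3 and 20.8 at day 14. The hydrogel libraries lay above all controls at days 7 and 14. The day 14 difference was 0.81 ± 0.44 (adjusted p = 0.218), and in hydrogel wounds the step from day 7 to day 14 was 1.22 ± 0.45 (adjusted p = 0.0633). That step passed in DESeq2 (adjusted p = 0.0331), in limma-voom (5.55e-08) and with only the compared groups fitted (4.81e-05). The difference between arms passed at day 7 in limma-voom (adjusted p = 0.00923) and with only the compared groups fitted (0.00677), and at day 14 in limma-voom (0.0409). With day 7 libraries summed none of these passed (adjusted p = 0.531 for the step, and 0.896 and 0.376 for the arms).

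Tgfbi, a secreted matrix protein named for its induction by TGF-beta (chr13:56609523-56639562, plus strand), was lower in hydrogel wounds at day 14. In control wounds it stood at 94.1, 100 and 147 CPM at day 1, at 221, 220 and 215 at day 7 and at 387, 258 and 142 at day 14. In hydrogel wounds it stood at 189, 207 and 89.4 CPM at day 1, at 180, 194 and 157 at day 7 and at 82.4, 59.8 and 42.1 at day 14. The arms overlapped at day 1, lay close together but apart at day 7, and were widely apart at day 14. At day 14 Tgfbi fell by 2.10 ± 0.37 (adjusted p = 0.0031), a 4.27-fold lower level, with a difference of -0.31 ± 0.36 at day 7 (adjusted p = 0.558) and 0.51 at day 1 (adjusted p = 0.39). The day 14 call was kept when any 1 library was left out, and ended with the 2 day 14 groups fitted alone (adjusted p = 0.0582). With day 7 libraries summed the day 14 difference was -2.12. In control wounds the step from day 1 to day 7 was 0.94 ± 0.36 (adjusted p = 0.0577). That control step passed in DESeq2 (adjusted p = 0.0392), limma-voom (0.015) and with only the compared groups fitted (0.0313). It did not pass when any 1 library of these groups was left out. From day 7 to day 14 in hydrogel wounds Tgfbi fell by 1.52 ± 0.37 (adjusted p = 0.0107), a call lost without replicate 3 of hydrogel day 14 (adjusted p = 0.0619) and with day 7 libraries summed (0.322). The hydrogel difference varied by day for Tgfbi at an adjusted p of 0.00956, lost only with day 7 libraries summed (adjusted p = 0.136) among 25 alternative fits.

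**Figure D2:**
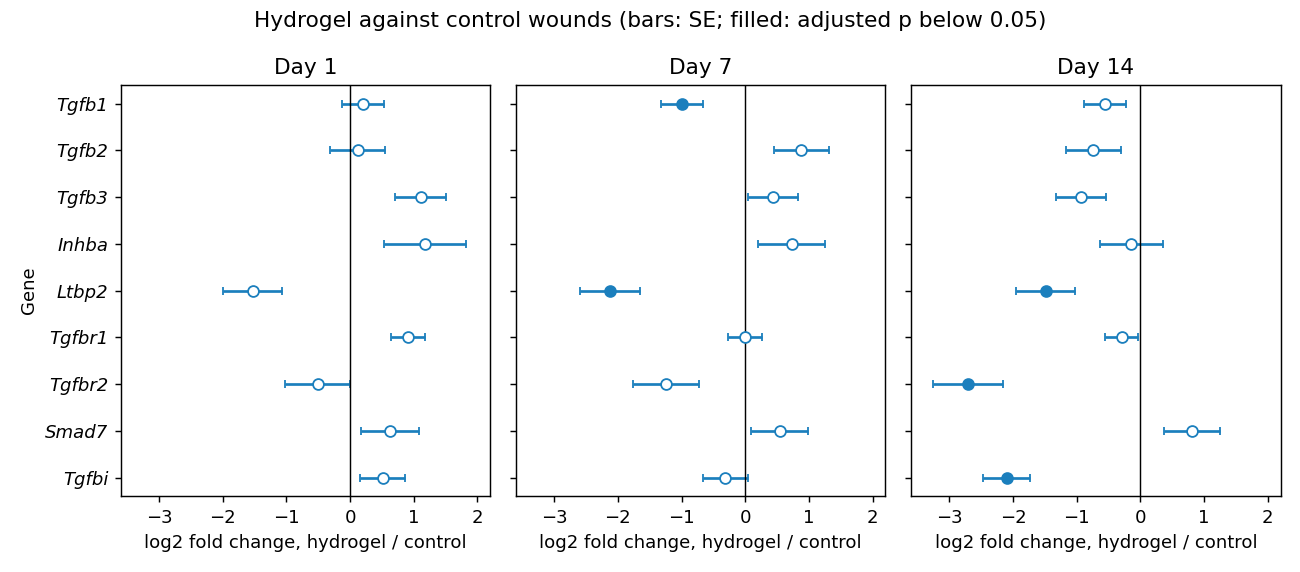
Fitted log2 fold change of hydrogel against control wounds (x axis) for each member (y axis) at days 1, 7 and 14, with SE bars; filled points passed at an adjusted p below 0.05. No point is filled at day 1, Tgfb1 and Ltbp2 are filled at day 7, and Ltbp2, Tgfbr2 and Tgfbi at day 14, all below 0.

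The counts of members that passed are given beside the share of all 17592 genes tested in wounds that passed the same way. At day 1 none of the 9 members passed in the edgeR test, where 4.53% of all genes tested passed as higher and 3.02% as lower; 3 members had an unadjusted p below 0.05, and DESeq2 called 3 and limma-voom 2. At day 7 none was higher and 2 were lower, against 9.86% and 11.7% of all genes; limma-voom called 4 higher and 3 lower there, and the fit of the compared groups alone 4 higher and 4 lower. At day 14 none was higher and 3 were lower, against 5.83% and 10.3%. The median log2 difference over the members was 0.51 at day 1, 0 at day 7 and -0.74 at day 14, beside 0.04, 0.01 and 0.03 over all genes tested. From day 1 to day 7, 2 members rose and none fell in control wounds (15% and 16.6% of all genes), and 1 rose and 1 fell in hydrogel wounds (7.76% and 10.5%). From day 7 to day 14, 1 rose and 1 fell in control wounds (6.33% and 5.87%), and none rose and 1 fell in hydrogel wounds (11.7% and 9.6%). The hydrogel difference varied by day for 2 members, against 15.8% of all genes. Steps that share the day 7 libraries, and arms compared with the same controls, are not independent of each other.

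Cell type markers differed between the same groups. In bulk tissue fewer cells of a type and less RNA per cell cannot be told apart. The 10 macrophage markers summed to 2740 to 2750 CPM in control wounds of day 7 and to 364 to 418 CPM in hydrogel wounds, and to 568 to 4760 CPM against 85.8 to 123 CPM at day 14; all 10 passed as lower on both days. The 8 fibroblast markers summed to 1940 to 1950 CPM against 466 to 530 CPM at day 7 and to 1880 to 4960 CPM against 462 to 820 CPM at day 14, with 7 of 8 lower on each day. The 8 keratinocyte markers went the other way at day 7 (801 to 813 CPM against 8580 to 8930 CPM, 7 of 8 higher), and at day 14, at 683 to 6680 CPM against 6270 to 6920 CPM, none passed. Endothelial markers were lower at day 7 (880 to 894 CPM against 238 to 244 CPM, 5 of 6) and day 14 (141 to 234 CPM against 61.1 to 82.5 CPM, 2 of 6). Platelet markers, from cells rich in Tgfb1 protein, summed to 89.9 to 93.3 CPM against 15.4 to 21.6 CPM at day 7, where 2 of 5 were lower, and to 17.5 to 110 CPM against 8.95 to 9.75 CPM at day 14, where 1 of 5 was. Adipocyte markers stood at 34200 to 34700 CPM in control wounds of day 7 against 948 to 1030 CPM (6 of 6 lower), and skeletal muscle markers at 20100 to 20400 CPM against 70300 to 83800 CPM (3 of 6 higher). At day 14 adipocyte markers summed to 689 to 3460 CPM against 608 to 970 CPM (1 of 6 higher, none lower), and muscle markers to 23000 to 30700 CPM against 11000 to 17100 CPM (none of 6 called). Neutrophil markers, at 45.7 to 317 CPM against 31.8 to 98.2 CPM at day 14, were lower for 4 of 6, and T cell markers lay at or below 11.3 CPM in every wound library. With day 7 libraries summed 0 of the 17592 genes tested, markers included, passed at day 7 in edgeR (1235 had an unadjusted p below 0.05). The part of these shifts in the lower Tgfb1, Tgfbr2, Tgfbi and Ltbp2 was not tested.

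At day 1 macrophage markers summed to 407 to 1110 CPM in control wounds and 615 to 814 CPM in hydrogel wounds, fibroblast markers to 307 to 1530 CPM and 421 to 598 CPM, and keratinocyte markers to 1870 to 5020 CPM and 2560 to 4820 CPM. Of these 3 lists, 1 fibroblast marker passed, as higher. Neutrophil markers summed to 128 to 204 CPM and 180 to 919 CPM (2 of 6 higher), endothelial markers to 383 to 1120 CPM and 272 to 775 CPM (1 of 6 lower), and platelet markers to 31.7 to 191 CPM and 52.7 to 210 CPM (none of 5 called). T cell markers did not overlap at that day, at 4.09 to 8.42 CPM in control and 1.12 to 4 CPM in hydrogel wounds (1 of 5 lower), and they overlapped at days 7 and 14. The control libraries of day 1 were far apart in muscle markers (5200 to 172000 CPM) and adipocyte markers (4460 to 68100 CPM), next to 82700 to 154000 CPM and 1320 to 5740 CPM in hydrogel wounds.

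Levels can be set side by side between genes only per kilobase of exon. In control wounds of day 7 Tgfbi had the highest level, 64.7 ± 0.857 CPM per kilobase (SD, n = 3), followed by Tgfbr2 at 27 ± 0.913, Tgfb1 at 14.6 ± 0.705 and Tgfbr1 at 5.37 ± 0.389. Ltbp2 at 3.28 ± 0.179 CPM per kilobase, Tgfb2 at 1.41 ± 0.0559, Smad7 at 1.29 ± 0.183 and Inhba at 0.424 ± 0.0813 closed the order. Tgfb2 and Smad7 lay within their spread of each other. In hydrogel wounds of day 14 the order at the top had changed: Tgfbi at 18.2 ± 5.98, Tgfb1 at 8.1 ± 0.369, Tgfbr2 at 5.93 ± 0.805 and Tgfbr1 at 5.84 ± 0.337 CPM per kilobase, the last pair within their spread, with Smad7 next at 4.37 ± 0.307. Tgfb2 at 1.89 ± 0.41 and Inhba at 1.81 ± 0.807 CPM per kilobase did not differ beyond their spread there, and Ltbp2 was lowest at 0.406 ± 0.0477.

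The genes with the profile most like that of each member over the 18 wound libraries were taken by the root mean square difference of centred log2 CPM. For Tgfbr2 these were Ecm1, a dermal matrix protein gene (0.265), and Heg1, an endothelial receptor gene (0.27), where the SD of Tgfbr2 itself was 0.969. Tgfbi was nearest to Tesmin (0.36, own SD 0.784), Ltbp2 to Inka1 (0.41, own SD 1.08) and Inhba to Megf6 (0.467, own SD 1.74). Tgfb1 was nearest to Tcirg1, a subunit gene of the vacuolar proton pump (0.24, own SD 0.557), Tgfb2 to Vipr2 (0.311, own SD 0.729), Tgfb3 to Nfatc2 (0.32, own SD 0.605), Tgfbr1 to Ankrd17 (0.186, own SD 0.398) and Smad7 to Atxn2l (0.226, own SD 0.718).  Among the members themselves Tgfb2 and Tgfb3 were the closest pair (0.532), and Tgfbr2 and Inhba the most distant (2.33).

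The rest of the pathway was followed in 69 listed genes, 68 of which were tested in wounds: at day 1, 6 were higher and 4 lower with hydrogel, at day 7, 5 were higher and 23 lower, and at day 14, 1 was higher and 26 lower. Of all genes tested 4.53% and 3.02% passed as higher and lower at day 1, 9.86% and 11.7% at day 7, and 5.83% and 10.3% at day 14. With day 7 libraries summed no pathway gene passed at day 7, and at day 14 the calls named below of Nrros, Bambi, Inhbb, Gdf11, Dcn and Eng ended. The medians of these 68 genes were 0.25, -0.26 and -0.55 on the log2 scale, beside 0.04, 0.01 and 0.03 over all genes. With day 7 libraries summed the counts called were 1, 0 and 15, and with only the compared groups fitted they were 0, 55 and 10. Leaving out 1 library, the day 1 count lay between 2 (without replicate 3 of hydrogel) and 16 (without replicate 1 of hydrogel), and it was 4 without replicate 2 of the controls. The day 7 count fell from 28 to 17 without control replicate 3 and to 15, 13 and 17 without hydrogel replicates 1, 2 and 3, and the day 14 count to 17 without hydrogel replicate 3.

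Among 14 genes of latency and activation, 2 were higher at day 1, 4 lower at day 7 and 5 lower at day 14. Lrrc32 and Nrros encode the anchors that hold latent TGF-beta on the cell surface, the first on regulatory T cells, platelets and endothelium and the second on macrophages and microglia. Nrros had a mean of 36.1 ± 2 CPM in control wounds of day 7 and 10.3 ± 1.48 in hydrogel wounds (SD, n = 3), and it fell by 1.81 ± 0.40 there (adjusted p = 0.0067) and fell by 1.92 ± 0.40 at day 14 (adjusted p = 0.0063). Lrrc32 fell by 2.46 ± 0.44 at day 14 (adjusted p = 0.00314), from 42.2 ± 7.86 to 7.66 ± 1.24 CPM. Mmp14, a membrane protease that can release latent TGF-beta, fell by 0.83 ± 0.27 at day 7 (adjusted p = 0.0369) and fell by 1.5 ± 0.27 at day 14 (adjusted p = 0.00318). Fbn1, the microfibril protein to which latent complexes bind, fell by 2.65 ± 0.69 (adjusted p = 0.0148) and dropped by 3.39 ± 0.71 (adjusted p = 0.00635) on those days, where 1 control library of day 14 carried most of its mean of 445 ± 579 CPM, and without replicate 1 of those controls the day 14 difference was -1.39. Without any 1 of the day 7 libraries of either arm the day 7 call of Mmp14 ended, and without any 1 hydrogel library that of Fbn1.

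Of 9 other receptor genes, 1 was higher at day 1, 1 was higher and 4 lower at day 7, and 1 was higher and 3 lower at day 14. Tgfbr3, the co-receptor betaglycan, fell by 1.18 ± 0.39 at day 7 (adjusted p = 0.0413) and dropped by 2.22 ± 0.40 at day 14 (adjusted p = 0.00324). Eng, the endothelial co-receptor endoglin, fell by 1.81 ± 0.45 (adjusted p = 0.0124) and dropped by 1.6 ± 0.45 (adjusted p = 0.0261) on the same days, and Acvr1c, a type I receptor of fat tissue, fell by 3.40 ± 0.69 at day 7 (adjusted p = 0.00453). Bambi, a decoy receptor that dampens the signal, rose at day 14 by 1.96 ± 0.46 (adjusted p = 0.0118), from 16.2 ± 9.2 to 63.2 ± 19.7 CPM. In the activin-type list of 8 genes, 1 was higher and 1 lower at day 1, 1 higher and 2 lower at day 7, and 4 lower at day 14. Inhbb, the partner subunit gene of Inhba, fell by 2.10 ± 0.26 at day 1 (adjusted p = 0.00138), from 75 ± 32.5 to 17.6 ± 3.58 CPM, and dropped by 1.23 ± 0.25 at day 14 (adjusted p = 0.00577). Gdf11 rose at day 1 by 1.58 ± 0.40 (adjusted p = 0.0281) and fell by 1.68 ± 0.38 at day 14 (adjusted p = 0.00896). The proteoglycan genes Bgn and Dcn, whose products bind TGF-beta in the matrix, both fell. Bgn fell by 2.09 ± 0.49 at day 7 (adjusted p = 0.00882) and dropped by 2.82 ± 0.50 at day 14 (adjusted p = 0.0031), and Dcn fell by 2.27 ± 0.52 (adjusted p = 0.00814) and dropped by 1.91 ± 0.51 (adjusted p = 0.021). Leaving out 1 library ended the day 7 call of Tgfbr3 (each library), the day 7 and day 14 calls of Eng, the day 14 calls of Bambi, Gdf11 and Dcn and the day 1 call of Gdf11 for at least 1 library; for Dcn at day 14 the difference was -0.58 without control replicate 1.

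Of 14 SMADs and regulators, 1 was lower at day 1, 2 were higher and 1 lower at day 7, and 2 were lower at day 14. Of all genes tested 3.02% were lower at day 1, 9.86% higher and 11.7% lower at day 7, and 10.3% lower at day 14. Pmepa1, a target that restrains SMAD activation, fell by 1.15 ± 0.26 at day 7 (adjusted p = 0.00831) and dropped by 1.54 ± 0.27 at day 14 (adjusted p = 0.00269). Smad3 and Zfyve9 (SARA), the SMAD that carries the signal and its membrane anchor, rose at day 7 by 1.46 ± 0.42 (adjusted p = 0.0225) and 0.99 ± 0.30 (adjusted p = 0.029), calls that ended without any 1 day 7 control library. Of 24 target genes 23 were tested, with 2 higher and 2 lower at day 1, 1 higher and 12 lower at day 7, and 12 lower at day 14. The median of the targets was -1.34 at day 7 and -1.19 at day 14. Col1a1, the main fibrillar collagen gene, rose at day 1 by 1.77 ± 0.38 (adjusted p = 0.0146) and fell by 2.69 ± 0.39 at day 7 (adjusted p = 0.00128) and dropped by 3.07 ± 0.40 at day 14 (adjusted p = 0.000842). Timp1, a protease inhibitor, fell by 1.96 ± 0.49 (adjusted p = 0.0128) and dropped by 3.66 ± 0.53 (adjusted p = 0.0013) on those days. The day 1 call of Col1a1 ended without control replicate 2 or hydrogel replicate 3, and the day 7 call of Timp1 without hydrogel replicate 1 or 2. Many listed targets are made by fibroblasts, whose markers moved with them, and the part of those cells was not tested.

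**Figure D3:**
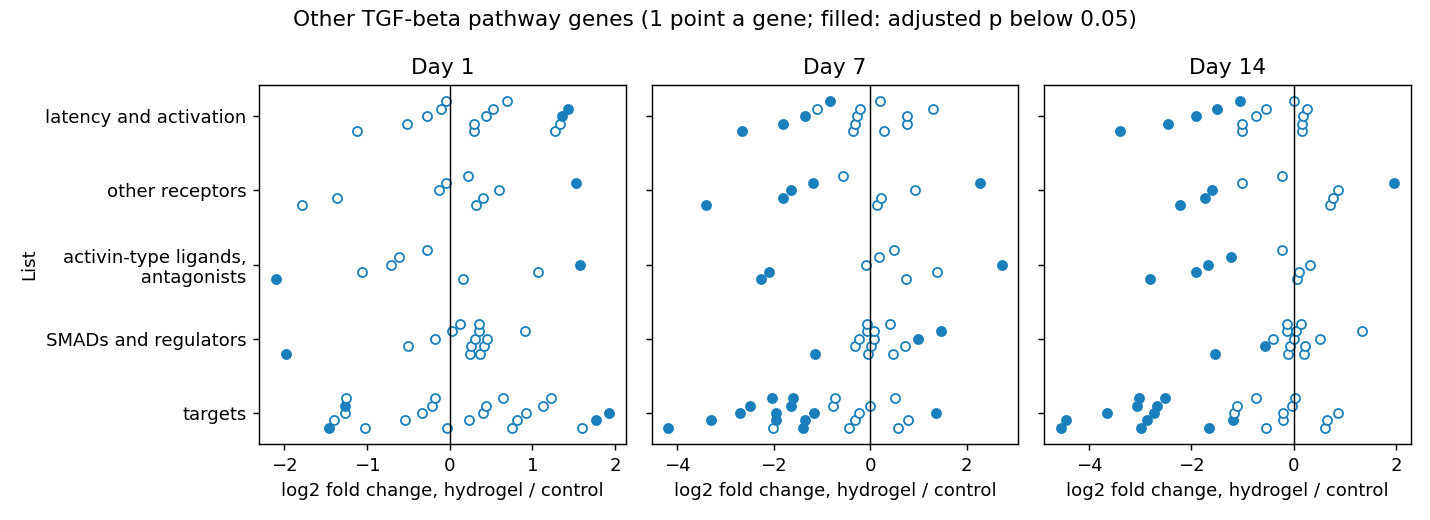
Fitted log2 fold change of hydrogel against control wounds (x axis) for the other pathway genes by list (y axis) at days 1, 7 and 14, 1 point a gene; filled points passed at an adjusted p below 0.05. Among targets 12 filled points lie below 0 at day 7 and 12 at day 14, and the single filled point above 0 at day 14 is Bambi.

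In RAW264.7 cells 5 of the 9 members had enough counts to be tested out of 12972 genes: Tgfb1, Tgfbr1, Tgfbr2, Inhba and Smad7. Of these 5, Tgfb1 rose and 3 fell with hydrogel, beside 34.7% of all genes tested that passed as higher and 37.8% that passed as lower. Tgfb1 stood at 513, 516 and 523 CPM without hydrogel and at 818, 752 and 661 CPM with hydrogel. All libraries with hydrogel lay above those without, and Tgfb1 rose by 0.52 ± 0.08 (edgeR quasi-likelihood test, n = 3 a group, adjusted p = 0.000135), a 1.44-fold higher level. Per kilobase Tgfb1 was the highest member in these cells, at 103 ± 1.03 CPM without hydrogel, ahead of Tgfbr2 at 13.7 ± 0.33.

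Both receptors were lower with hydrogel in RAW264.7 cells. Tgfbr1 stood at 11.3, 12.9 and 11.4 CPM without and at 6.22, 6.38 and 5.46 CPM with hydrogel, and fell by 0.98 ± 0.10 (adjusted p = 1.07e-05). Tgfbr2 stood at 114, 109 and 112 CPM without and at 82.8, 87.7 and 90.5 CPM with hydrogel, and fell by 0.36 ± 0.06 (adjusted p = 0.00027). In neither did the groups overlap, and the drop in Tgfbr2 was the smaller, a 1.29-fold lower level beside 1.97-fold for Tgfbr1. Inhba was near the floor of measurement, with 54 counts in all without and 22 with hydrogel (0.751, 0.724 and 0.88 CPM against 0.448, 0.176 and 0.42), and fell by 1.19 ± 0.33 (adjusted p = 0.00773). Smad7 stood at 4.51, 4.49 and 4.91 CPM without and 3.58, 5.37 and 6.93 CPM with hydrogel. These ranges overlapped, and the difference of 0.22 ± 0.20 did not pass (adjusted p = 0.34), although without replicate 1 of the libraries with hydrogel Smad7 passed as higher (0.42 ± 0.13, adjusted p = 0.0116). The labels of the libraries with hydrogel hold 3 different gel names, while their titles share 1 name (H2). If the gels differed, the spread of these libraries may hold differences between gels. Only the libraries without hydrogel name LPS in their labels, so by those labels LPS and the gels cannot be told apart. Libraries without hydrogel varied little more than repeated sampling would, so these adjusted p-values may rest on technical variation.

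The other 4 members were not tested in RAW264.7 cells. Tgfb2 had 6 counts in all without hydrogel and 1 with, Tgfb3 and Tgfbi had 2 and 0, and Ltbp2 had 25 and 11. A count of 0 over the 3 libraries with hydrogel allows a level of up to 0.0466 CPM (3 counts, covering counting error only). The target gene Tgfbi, among the highest members in wounds, was therefore at or near 0 in these cells, both with and without hydrogel.

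**Figure D4:**
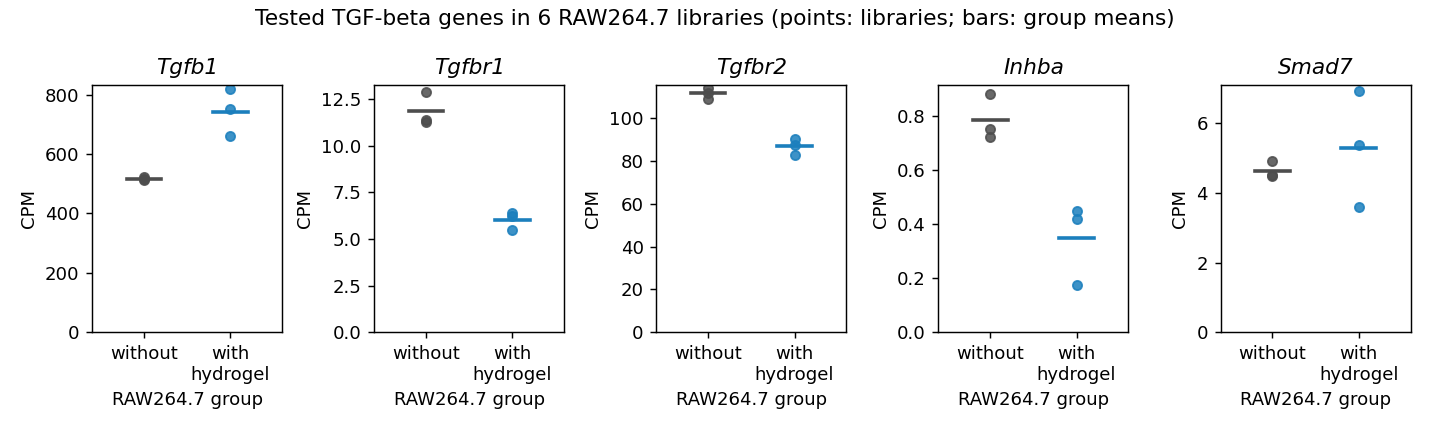
Counts per 1000000 counts (CPM, linear axes from 0) of the 5 tested members in each RAW264.7 library (points) with group means (bars), without hydrogel in grey and with hydrogel in blue. Tgfb1 is higher with hydrogel in all 3 libraries, Tgfbr1, Tgfbr2 and Inhba are lower in all 3, and Smad7 overlaps.

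Of the 69 pathway genes 35 were tested in RAW264.7 cells, with 11 higher and 16 lower, beside 34.7% and 37.8% of all genes tested. Itgav, the integrin subunit that helps to activate latent TGF-beta, fell by 1.58 ± 0.06 (adjusted p = 2.58e-08), and Nrros rose by 0.72 ± 0.06 (adjusted p = 2.52e-06), from 100 ± 0.975 to 164 ± 9.79 CPM. Ltbp4 rose by 1.64 ± 0.40 (adjusted p = 0.00354) and Mmp14 fell by 0.99 ± 0.25 (adjusted p = 0.00457), so that of 7 tested latency genes 2 were higher and 5 lower. Of 6 tested receptor genes 2 were higher and 3 lower. Acvrl1, the type I receptor ALK1, fell by 1.52 ± 0.09 (adjusted p = 1.99e-07), Acvr1b fell by 0.53 ± 0.07 (adjusted p = 4.13e-05) and Acvr2a fell by 0.55 ± 0.10 (adjusted p = 0.000746), and Acvr2b rose by 0.74 ± 0.14 (adjusted p = 0.000826). Fst, the activin antagonist follistatin and the only activin-type gene tested, fell by 1.35 ± 0.34 (adjusted p = 0.00488).

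Among the 14 SMADs and regulators in RAW264.7 cells 4 were higher and 5 lower. Trim33, a ubiquitin ligase acting on Smad4, fell by 0.90 ± 0.07 (adjusted p = 1.01e-06), Smurf2 fell by 0.64 ± 0.06 (adjusted p = 6.12e-06) and Skil, a repressor of SMADs, fell by 0.43 ± 0.06 (adjusted p = 4.73e-05), and Nedd4l rose by 0.54 ± 0.10 (adjusted p = 0.000544). Of 7 tested targets 3 were higher and 2 lower. Timp1 fell by 0.38 ± 0.10 (adjusted p = 0.00566). Id1, a target best known from BMP signalling, rose by 1.07 ± 0.11 (adjusted p = 1.02e-05), from 6.45 ± 0.205 to 13.6 ± 1.75 CPM, and Cdkn1a rose by 0.42 ± 0.09 (adjusted p = 0.00151). The 10 macrophage markers summed to 2830 to 2900 CPM without and 4660 to 4980 CPM with hydrogel, with 4 of 8 tested higher and 3 lower, and their part in these differences was not tested.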

How the data were processed

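Wound and RAW264.7 RNA was measured by RNA-seq (24 libraries). The values used were read-pair counts per gene symbol over exons, made by the authors without use of strand from the GENCODE M25 annotation, per the file headers. Overlapping and antisense genes cannot be told apart. Per the submitters' processing notes, Trim Galore 0.6.10, FastQC 0.11.9, HISAT2 2.2.1, SAMtools 1.9 and featureCounts 2.0.6 were used on mm10. The other value deposited by the authors and used was exon length.

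Samples were grouped by their titles. Low counts were removed with filterByExpr (at least 10 counts in enough libraries, at least 15 in total), library sizes scaled by TMM, and genes tested in edgeR 4.0.16 (R 4.3.3) with the robust quasi-likelihood test, on all 18 wound libraries with 6 group means and separately on the 6 RAW264.7 libraries. p-values were adjusted over all genes tested (Benjamini-Hochberg), with a threshold of 0.05, and only genes below it are said to have risen or fallen. CPM are TMM-scaled, and log2 CPM for profiles used a prior count of 2. The fit was tested on simulated data. Alternatives were RLE size factors, no filter, a minimum count of 30, DESeq2 1.42.0, limma-voom (limma 3.58.1), the compared groups alone, a replicate block, day 7 libraries summed, and each library left out.

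The members, the 69 pathway genes, the 60 marker genes and the alternatives were chosen with earlier results of these data known. Named were all members, up to 4 genes of each pathway list by the smallest adjusted p among those called with hydrogel, and the nearest of 3 profiles for each member. A gene that this rule names is not reported here.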

Additional observations from a re-analysis of the deposited data

Results flagged for a closer look

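For Tgfb3 and Tgfbi the hydrogel difference varied between days 1, 7 and 14 in the edgeR quasi-likelihood test of that difference (adjusted p = 0.045 and 0.00956). Among the named pathway genes the same test gave an adjusted p of 0.00309 for Nrros, 0.00693 for Mmp14, 0.00964 for Fbn1 and 0.0478 for Lrrc32. It gave 0.00326 for Inhbb, 0.00468 for Bgn, 0.00471 for Gdf11 and 0.049 for Dcn, and 0.00879 for Bambi, 0.0352 for Tgfbr3 and 0.0219 for Pmepa1. For the targets it gave 0.000277 for Col1a1, 0.00211 for Col1a2, 0.00215 for Timp1 and 0.00538 for Col5a1. With day 7 libraries summed 1 of the 68 pathway genes and 0 of the 9 members passed that test.

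For some genes every hydrogel library lay on one side of all controls in wounds and on the other side in RAW264.7 cells, and the difference between these effects was not tested. The share of all genes that did so is not given here. Tgfb1 was lower in wounds at day 7 (-1 on the log2 scale) and day 14 (-0.55) and higher in RAW264.7 cells (0.52). Its day 14 difference did not pass in edgeR (adjusted p = 0.261). Nrros was likewise lower in wounds at day 7 (-1.81) and day 14 (-1.92) and higher in RAW264.7 cells (0.72). Inhba at day 7 (0.73) and Mmp14 at day 1 (0.53) were higher in hydrogel wounds and lower in RAW264.7 cells (-1.19 and -0.99). The day 7 difference of Inhba did not pass in edgeR (adjusted p = 0.331).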

How the results depend on the processing

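Over 1166 alternative values for the members, 1025 kept direction and call, 66 lost the call, 75 gained one and 0 reversed; 38 changed sign where neither fit made a call. For the named pathway genes 1362 of 1542 values kept both, 150 lost the call, 30 gained one and 0 reversed. The counts of members called moved as follows, and the cause was not tested. At day 1 (0 called) a minimum count of 30 gave 1, DESeq2 3, limma-voom 2 and leaving out 1 library 0 to 3. At day 7 (2 called) limma-voom gave 7 (4 higher), the compared groups alone 8 (4 higher), day 7 libraries summed 0 and leaving out 1 library 1 in each case. At day 14 (3 called) limma-voom gave 7 and the compared groups alone 0 (5 at an unadjusted p below 0.05). From day 1 to day 7 in control wounds (2 called) DESeq2 gave 4, limma-voom 5, day 7 summed 0 and leaving out 1 library 1 to 3. From day 7 to day 14 in control wounds (2 called) limma-voom gave 5, day 7 summed 0 and leaving out 1 library 0 to 2. From day 1 to day 7 in hydrogel wounds (2 called) no filter gave 1, limma-voom 5, the compared groups alone 1, day 7 summed 0 and leaving out 1 library 0 to 2. From day 7 to day 14 in hydrogel wounds (1 called) DESeq2 gave 3, limma-voom 7, the compared groups alone 7, day 7 summed 0 and leaving out 1 library 0 to 1. For the difference by day (2 called) no filter gave 1, limma-voom 7, day 7 summed 0 and leaving out 1 library 1 to 6, with 6 without replicate 1 of control day 1. In RAW264.7 cells (4 called) no setting moved the count by over 1.5 times.

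Over all genes, limma-voom called 4280 at day 1 and 12321 at day 7, and the compared groups alone 0 and 11558, beside 1329 and 3792. Pathway genes called by limma-voom were 25 at day 1, 53 at day 7 and 51 for the difference by day, beside 10, 28 and 28, and DESeq2 called 16 at day 1. Same-numbered wound libraries deviated together with r over 0.1 in 8 of 45 pairs (-0.102 to 0.374) and RAW264.7 pairs in 0 of 3 (-0.0185 to 0.0133). Day 7 libraries varied less than those of day 1, so r can show little pairing there. Among control wounds of days 1 and 14 and hydrogel wounds of day 1, every r was positive (0.0561 to 0.374). These values do not decide whether replicate numbers pair the libraries. With a replicate block the members called were 2 from day 7 to day 14 in hydrogel wounds and 1 for the difference by day. Counts were low for Inhba at day 1 and for the 4 members not tested in RAW264.7 cells.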
